A study of Mus musculus with 8 samples.

Results

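The genes of the early secretory pathway, which carry new proteins into the endoplasmic reticulum (ER) and on to the Golgi, were described by the density of ribosome footprints on their coding sequences in mouse liver. Members were chosen by a rule on gene symbols, set with earlier results of these data known. The rule took symbols beginning with Sec, Srp or Ssr and a digit, and those of Srpr, Spcs, Tmed, Kdelr, Trappc, Cog and Golga genes and of COPI subunits. It also took Rpn1, Rpn2, Ddost, Dad1, Stt3a, Stt3b, Lman1 and Mcfd2 by name. It found 71 genes among the 7500 that have a line in the deposited table. Male FVB/N mice were fed from weaning, for 6 weeks, a torula yeast diet low in selenium (0 Se) or the same diet with 0.1 ppm Se as sodium selenite (0.1 Se). Ribosome footprints were sequenced from the livers of 2 mice per diet, with 2 libraries per mouse and 8 libraries in all. The table gives a single abundance per gene. Its column names no sample, and it was taken as the authors' average over all libraries of both diets. No value per mouse or per diet was used, so no difference below carries a replicate error or a test, and the depth of a library is unknown.

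A secreted or membrane protein is recognised while it is still being made. The signal recognition particle (SRP) binds its signal sequence and hands the ribosome to a receptor on the ER, and the chain passes through the Sec61 channel. Signal peptidase removes the signal sequence and oligosaccharyltransferase attaches sugar chains. Cargo leaves the ER in vesicles with a COPII coat, and vesicles with a COPI coat return escaped ER proteins and receptors from the Golgi. Tethering complexes and golgins hold arriving vesicles to the Golgi membrane. Hepatocytes depend on this route because they release most of the proteins of blood plasma.

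Abundance is given as log2 CPM, the logarithm of footprint counts scaled to a common library total (CPM). Because a longer coding sequence holds more ribosomes at the same rate of protein synthesis, genes were compared by density, which is CPM divided by the kilobases of coding sequence that were counted. The liver identity of the libraries was checked first. Of 10 hepatocyte markers, 9 had a line, and together they held 18% of all counted footprints. The markers of Kupffer cells held 0.0512% in 7 of 9 symbols, of which Emr1 and Adgre1 name the same gene. Those of endothelial cells held 0.0448% in 6 of 6 and those of stellate cells 0.0315% in 6 of 6. Those of bile duct cells held 0.00483% in 4 of 5. None of 5 globin genes had a line, which is no measure of blood content, since abundance was not the only reason for a gene to be missing from the table. These are whole livers, so the cell type in which a member was translated cannot be told apart.

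Most members had more footprints per kilobase than the median gene of the table. Their median density was 57.3 CPM per kb, or 5.84 on the log2 scale, against 11.3 CPM per kb, or 3.50, for all genes of the table. Of the 71 members, 60 (84.5%) lay above the median density of all genes, 43 (60.6%) lay in the top 25% and 13 (18.3%) in the top 10%. By log2 CPM, which takes no account of length, 64 members lay above the median of all genes, and the medians were 5.92 and 3.95. The members spanned a log2 CPM of 0.66 to 9.22. All of them together held 0.683% of the counted footprints.

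**Figure D1:**
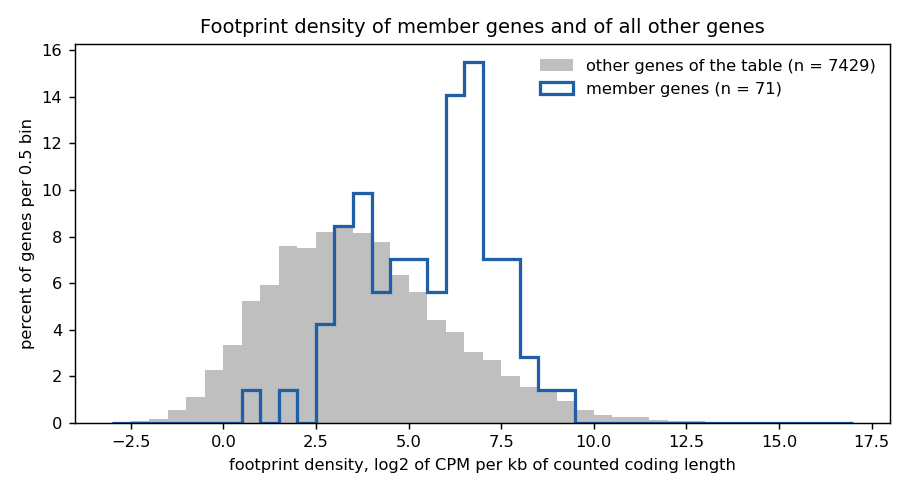
Histogram of footprint density, as log2 of CPM per kb of counted coding length (x axis), in percent of genes per bin (y axis), for the 71 member genes (blue outline) and the 7429 other genes of the table (grey). The members centre on 5.84 and the other genes on 3.47, and no member reaches the highest densities of the table.

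The machinery was small beside its cargo. Alb, which encodes serum albumin and is the most abundant liver secretory product, held 9.14% of all counted footprints, 13.4 times as many as all 71 members together. The 14 genes with a line among 16 listed cargo genes, which encode albumin, apolipoproteins, fibrinogen chains, transferrin, transthyretin, complement C3, coagulation factor V and serine protease inhibitors, held 19.4%, or 28.3 times the members' sum. Per kilobase, Alb was translated at 228 times the density of Sec61a1, the pore-forming subunit of the channel.

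Density differed between the stages of the route, a grouping of the machines that was not planned beforehand. The 22 members that act in entry into the ER (SRP and its receptor, translocon, TRAP, signal peptidase and oligosaccharyltransferase) had a median density of 118 CPM per kb, and all 22 lay above the median of all genes. The 27 members of coats, p24 proteins and receptors had a median of 71.0 CPM per kb, with 24 above that median. The 21 members of the tethers TRAPP and COG and of the golgins had a median of 12.3 CPM per kb, close to that of all genes, and 13 of them lay above it. The tethers and golgins were also longer, with a median counted length of 2298 bases against 775.5 bases for the entry genes and 921 bases for the coats and receptors. The order above is that of density. By median log2 CPM, which takes no account of length, the entry machines ran from 4.69 to 7.65. Those of coats and receptors ran from 5.69 to 7.67. Those of tethers and golgins ran from 4.27 to 5.30, above the 3.95 of all genes. On that scale the entry machines did not stand above the coats and receptors.

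**Figure D2:**
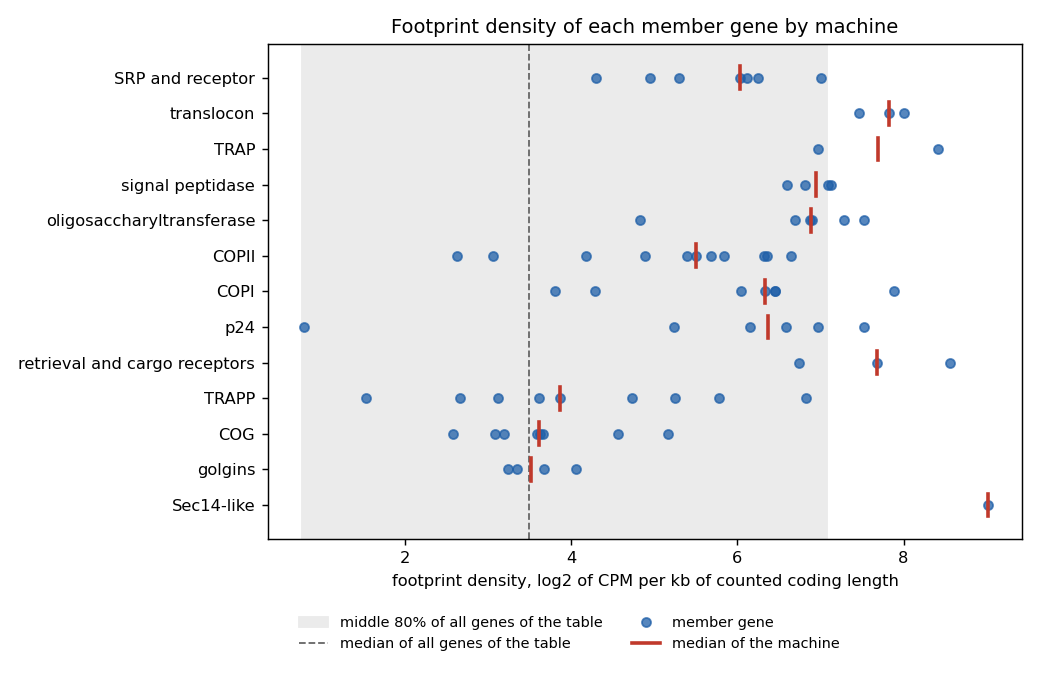
Footprint density of each member gene (blue points), as log2 of CPM per kb (x axis), by machine (y axis), with the median of each machine (red bar), the median of all genes (dashed line, 3.50) and the middle 80% of all genes (grey band). The translocon has its median at 7.83 and the golgins at 3.51, while COPII, COPI, p24 and TRAPP members spread over more than 4 log2 units each. The p24 spread rests on Tmed8, grouped there by symbol only, and is 2.29 without it.

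Targeting came first in order of function. SRP is an RNA and protein particle, of which 5 proteins had a line. Srp9 and Srp14, which form the Alu-domain dimer that slows elongation, had densities of 129 and 69.2 CPM per kb. Srp72 and Srp68, which bind each other on the particle's RNA, had 65.3 and 39.3 CPM per kb, a ratio of 1.66. Srp19, which helps to assemble the particle, was the lowest of the group with 19.6 CPM per kb. A particle holds a single copy of each of these proteins, and their densities spanned 6.55-fold. The gene of the GTPase that reads the signal sequence, Srp54, had no line and was not analysed here.

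The SRP receptor pairs a GTPase that docks the particle, encoded by Srpr, with a membrane anchor, encoded by Srprb. Srpr had 75.9 CPM per kb and Srprb 30.8, a ratio of 2.46. Srprb lies beside the transferrin gene Trf on chromosome 9, at 103090363 to 103104467 (mm9), and the whole Srprb coding sequence is part of an annotated Trf transcript of 2937 coding bases. The length deposited for Trf belongs to a shorter transcript of 2094 coding bases that does not hold it.

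The 3 translocon members with a line spanned 1.45-fold, or 2.18-fold with 54 bases taken off each length. Sec61a1 (chromosome 6, 88453595 to 88468899, mm9), the channel itself, had a density of 227 CPM per kb and a log2 CPM of 8.28. Sec61g, a small subunit that clamps the channel, had 257 CPM per kb, or 1.13 times Sec61a1. Sec62, which assists post-translational entry, had 177 CPM per kb, or 0.780 times Sec61a1. Sec61b and Sec63 had no line. The counted part of Sec61g is only 147 bases long, the shortest of all members, so its density is sensitive to the length used. With the whole coding sequence as length, the ratio of Sec61g to Sec61a1 was 0.838, on the other side of equality, and with 54 bases taken off the deposited length it was 1.72. The deposited length was taken to be the counted part already. If so, taking 54 bases off, here and below, removes the left-out codons a second time.

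TRAP, the translocon-associated protein complex, helps chains to start through the channel. Ssr3 had a density of 342 CPM per kb, and Ssr1 had 126, a ratio of 2.73. Ssr3 was the highest of the entry genes at the deposited length and at the whole coding length, but with 54 bases taken off it lay at 384 CPM per kb, below Sec61g at 406. Ssr2 and Ssr4 had no line. Ssr3 lay at 1.51 times the density of Sec61a1.

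Signal peptidase was nearly even across its subunits. The catalytic subunit Sec11a had 96.5 CPM per kb, and the accessory subunits Spcs1, Spcs3 and Spcs2 had 112, 136 and 139. The span from lowest to highest was 1.44-fold. The other catalytic subunit, Sec11c, had no line.

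Oligosaccharyltransferase is built around a catalytic subunit, either Stt3a, which works beside the translocon on entering chains, or Stt3b, which also modifies sites that were passed over. All 6 genes of the list had a line. Stt3a had a density of 119 CPM per kb and Stt3b 28.3, a ratio of 4.2, so Stt3a made up 80.8% of the pair. The scaffold subunits Rpn1 (ribophorin I), Ddost and Dad1 had 104, 117 and 155 CPM per kb. Rpn2 (ribophorin II, chromosome 2, 157104753 to 157152055, mm9) was the highest of the 6 with 185 CPM per kb and a log2 CPM of 8.41. With 54 bases taken off each length, Dad1, a short gene, passed it at 192 CPM per kb against 190.3. The catalytic pair summed to 147 CPM per kb, which is 1.26 times Ddost and 1.42 times Rpn1, whereas Stt3b alone was the lowest of the 6. Other subunits, outside the symbol rule, spread more widely. Ost4, which has only 54 counted bases, had 314 CPM per kb and Krtcap2 172. Ostc had 121, Magt1 79.0 and Tusc3 11.2.

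COPII coats form at ER exit sites from an inner layer of Sec23 and Sec24, which bind each other and hold the cargo, and an outer cage of Sec13 and Sec31. Among the inner coat genes, Sec23a had 82.2 CPM per kb and Sec23b 45.3. Sec24a, Sec24d and Sec24c had 51.4, 41.9 and 29.5 CPM per kb, and Sec24b had 6.15, which is 4.77% of the Sec24 sum. As sums over each family, Sec23a and Sec23b had 128 CPM per kb and the 4 Sec24 genes 129, a ratio of 0.988. This summing over related genes, used here and for the other complexes, was chosen after the values had been seen.

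The outer coat was less even. Sec13, which also belongs to the nuclear pore and to a nutrient-sensing complex, had 99.9 CPM per kb, and Sec31a had 57.3, a ratio of 1.74. Sec31a was at 0.449 times the Sec23 sum. Its relative Sec31b had no line, so the Sec31 position may be incomplete in these comparisons. Sec16a, the large scaffold of exit sites, had a log2 CPM of 6.99 but a density of only 18.1 CPM per kb, being the longest member with 7014 counted bases. Sec22b, a SNARE protein that drives fusion between ER and Golgi vesicles, had 79.7 CPM per kb, and its relative Sec22a had 8.31.

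COPI, the coatomer of retrograde vesicles, had near-equal densities on its large subunits. Copa (chromosome 1, 174012660 to 174052461, mm9), Copb1 and Copb2, which encode the alpha, beta and beta prime subunits, had densities of 87.5, 87.4 and 80.8 CPM per kb. The gamma subunit comes from either of a pair of genes. Copg had 66.1 CPM per kb and Copg2 19.6, and their sum of 85.7 was close to the other large subunits. The ratio of Copa to Copb1 was 1.001, that of Copa to Copb2 1.08 and that of Copa to the gamma sum 1.02. Not every subunit followed. Cope, which encodes the epsilon subunit, had 236 CPM per kb, 2.69 times Copa. Arcn1, the delta subunit, which the symbol rule did not take, had 131 CPM per kb. Copz2, a form of the zeta subunit, had 14 CPM per kb, while the other zeta gene, Copz1, had no line.

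**Figure D3:**
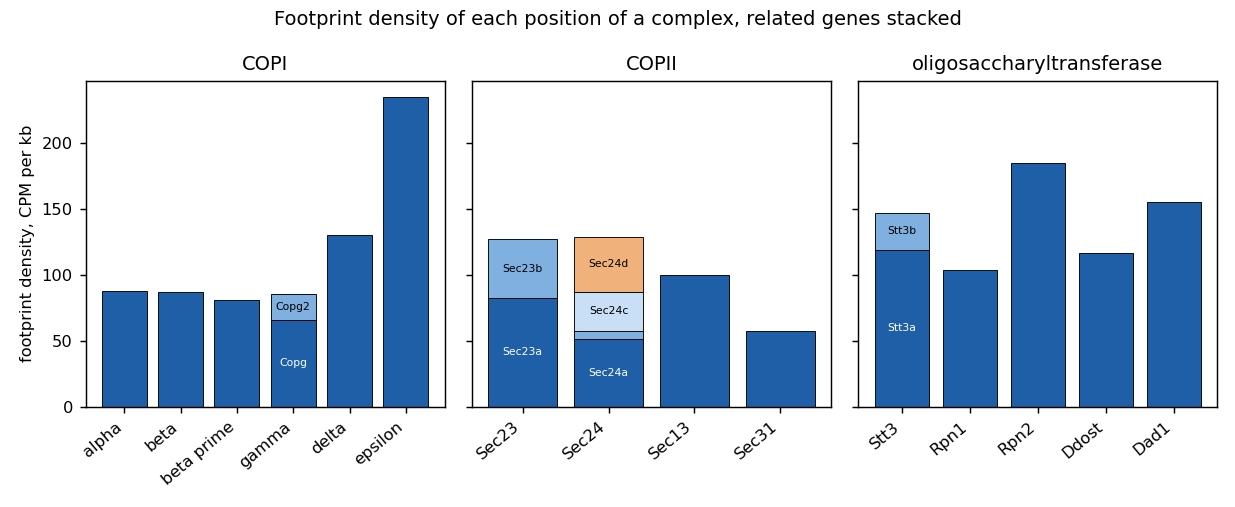
Footprint density in CPM per kb (y axis, from 0) at each subunit position (x axis) of COPI, COPII and oligosaccharyltransferase, with related genes that fill the same position stacked. Alpha, beta, beta prime and gamma of COPI stand between 80.8 and 87.5, the Sec23 and Sec24 stacks reach 128 and 129, and epsilon of COPI and Rpn2 are the tallest of the plotted positions of their complexes. The thin segment in the Sec24 stack is Sec24b.

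Related genes were also compared by sequence, since footprints of about 30 bases can be assigned only where the genes differ. Over their aligned coding bases (mm9 annotation), identity ranged from 52.8% for Sec24a and Sec24d to 76.1% for Kdelr2 and Kdelr1, with 75.5% for Sec23a and Sec23b and 71.8% for Copg and Copg2. The longest runs shared by the pairs of the COPI gamma subunit, the KDEL receptor and Sec23 are printed here to show how short the stretches without any difference were. All letters are lower case because no part of a run stands out.
Copg and Copg2: aaattcgacaagaaggacgaggagtctggt
Kdelr2 and Kdelr1: tggaccttctccatctacctggagtc
Sec23a and Sec23b: atggtgcaggttcatgagct

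The Copg run of 30 bases crosses from exon 1 to exon 2 in both genes, at 87838039 to 87839066 on the plus strand of chromosome 6 for Copg and at 30845593 to 30846688 on the minus strand of the same chromosome for Copg2 (mm9). It begins at coding base 10 and so falls within the first 15 codons, which the study left out of its counts. The Kdelr run of 26 bases lies in exon 4 of 5, at 144180497 to 144180522 on chromosome 5 for Kdelr2 and at 53136876 to 53136901 on chromosome 7 for Kdelr1, on the plus strand. The Sec23 run of 20 bases lies in exon 5 of 20, at 60102876 to 60102895 on the minus strand of chromosome 12 for Sec23a and at 144392646 to 144392665 on the plus strand of chromosome 2 for Sec23b. Of the 69 members with a coding sequence in the annotation, 61 shared no exact window of 30 bases with another gene and 4 shared over 1% of their windows. Those were Srprb, Tmed2 with 6.24%, Sec61g with 6.18% and Golga2 with 1.74%. Since up to 2 mismatches were allowed in alignment, exact windows understate the sharing.

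The p24 proteins, encoded by most Tmed genes, are cargo receptors that cycle between ER and Golgi. Tmed8 was grouped with them by its symbol only and is not counted among these receptors. Tmed2, Tmed9 and Tmed5 had 184, 126 and 96.2 CPM per kb, and Tmed7 and Tmed3 had 71.0 and 37.7. Tmed8 (chromosome 12, 88507192 to 88541179, mm9) had 1.72 CPM per kb and a log2 CPM of 0.66, the lowest of all 71 members on both scales. Tmed10, the usual partner of Tmed2, had no line. Without Tmed8, the range within the group fell from 6.75 to 2.29 on the log2 scale.

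The receptors that return cargo showed an uneven pair. Kdelr2 (chromosome 5, 144165499 to 144182951, mm9), a receptor for ER proteins that end in the KDEL retrieval signal, had 378 CPM per kb, the second highest density of all members. Kdelr1 had 107, so that Kdelr2 made up 77.9% of their sum of 486 CPM per kb. Kdelr3 had no line and is not part of that sum. Mcfd2, which works with Lman1 to carry coagulation factors V and VIII out of the ER, had 205 CPM per kb. Its cargo F5 had 147 CPM per kb, while Lman1 and F8 had no line.

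The tethers had lower median densities than the coats, 14.5 CPM per kb for TRAPP and 12.2 for COG. TRAPP complexes activate the Rab GTPases that prepare Golgi membranes, and 9 of their subunits had a line. The small core subunits Trappc3 and Trappc1 had 114 and 54.8 CPM per kb, Trappc5 had 38.1, Trappc2l 26.6 and Trappc6b 12.2. Of the large subunits, only Trappc11 exceeded Trappc6b, with 14.5 CPM per kb, and Trappc8, Trappc9 and Trappc10 had 8.65, 6.32 and 2.87. Trappc9 and Trappc10 are the subunits particular to the TRAPPII form, and Trappc8 and Trappc11 belong to TRAPPIII. The whole group spanned 39.6-fold.

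COG is a tether of 8 subunits in a pair of lobes, and all 8 had a line. Cog4 had 36.0 CPM per kb and Cog7 23.7, Cog6, Cog8 and Cog2 lay together at 12.6, 12.3 and 12, and Cog5, Cog3 and Cog1 had 9.14, 8.47 and 5.93. The range was 6.06-fold from Cog1 to Cog4. Neither lobe stood apart, since Cog4 and Cog1, the extremes, belong to the same lobe. The golgins, long coiled-coil proteins of the Golgi surface, were more alike, from 9.40 CPM per kb for Golga3 over 10.2 for Golga4 and 12.7 for Golga2 to 16.6 for Golga5.

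The highest density of all members belonged to a gene that the symbol rule takes but that is no part of the transport machinery. Sec14l2 (chromosome 11, 3997042 to 4023418, mm9) encodes a lipid transfer protein of the cytosol that binds tocopherol and squalene. It had a log2 CPM of 9.22 and 519 CPM per kb, and it alone held 8.75% of the members' footprints.

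Partners of the pathway outside the symbol rule were read from a list of 59 genes, of which 39 had a line. Their median density was 6.03 on the log2 scale, near the 5.84 of the members, and 37 of the 39 lay above the median of all genes. The highest was Hspa5, the main chaperone of the ER lumen, with 1123 CPM per kb, and the lowest was Tram2 with 7.24. Among the small GTPases that start coat assembly, Sar1b had 593 CPM per kb and Sar1a 150, while Arf1 and Arf4 had 561 and 456, and Arf5 and Arf3 124 and 109. Sar1b, Arf1 and Arf4, named after their values had been seen, each exceeded the density of every coat subunit described above, whereas Arf3, Arf5 and Sar1a lay below Cope.

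Shorter members had higher densities, but density is CPM divided by that same length. A negative correlation is therefore built in wherever CPM does not rise in step with length. The Spearman correlation between counted length and log2 density was -0.52 across the 71 members and -0.45 across all 7500 genes, given as a description because genes are not independent. The study kept genes over 1 CPM, which sets a floor on density that is higher for shorter genes. Between length and log2 CPM the correlation was 0.23 across members and 0.01 across all genes.

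**Figure D4:**
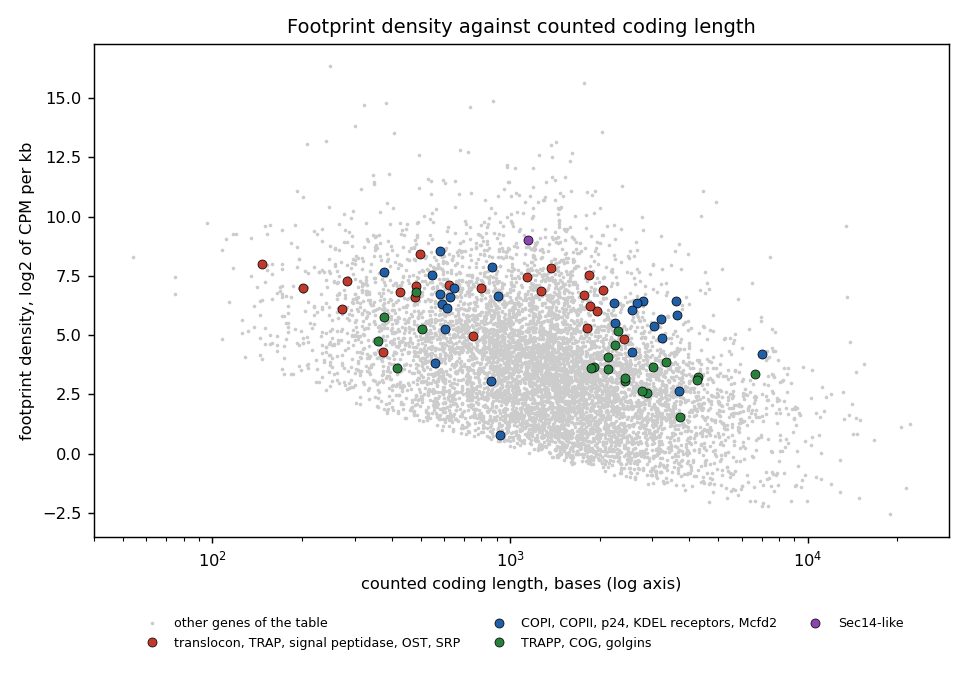
Footprint density as log2 of CPM per kb (y axis) against counted coding length in bases (x axis, log axis) for the members by stage (coloured points) and the other genes of the table (grey). The members run from 147 to 7014 bases, with the entry genes (red) at a median log2 density of 6.88 and the tethers and golgins (green), many of them long, at 3.62.

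A coding feature linked to retrieval was looked up as well, though this had not been planned beforehand. Membrane proteins that COPI returns to the ER often end in lysines at places 3 and 4, or 3 and 5, counted back from the end. Lysine codons (AAA or AAG) at such places were found in 4 of 69 members (5.80%) and in 169 of 7086 genes (2.38%) whose coding sequence could be read. These were Ddost, Stt3b, Tmed9 and Srp19, the last a protein of the cytosol. The pattern was read from codons alone. Which side of the membrane an end faces, and whether it serves in retrieval, was not examined for any of them. The last 24 coding bases, stop codon included, are shown 5′ to 3′ for the first 3, with the lysine codons of the pattern in capitals (mm9 annotation).
Ddost: aaggagAAGgagAAGtctgactga
Stt3b: aagacctctAAGAAGactgtttaa
Tmed9: tttgaagccAAGAAGttggtgtag

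Ddost and Tmed9 had densities of 117 and 126 CPM per kb, and Stt3b 28.3. Of the 6 Tmed members, Tmed9 was the only one with the pattern in this form. In promoters, the ER stress element was searched on both strands as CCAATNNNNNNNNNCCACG, in RefSeq windows (GRCm38.p6) that reach from before to just after each transcription start. It was found in 0 of 60 members with a window, in 16 of 6061 genes of the table (0.264%) and in 0.119% of all windows, the Hspa5 promoter among them.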

How the data were processed

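The labels describe 8 ribosome profiling libraries of mouse liver, 4 per diet, grouped by sample title. Per the labels and the study's methods, reads were trimmed, freed of rRNA and aligned with Bowtie to the longest RefSeq isoform per gene (mm9, unique hits, up to 2 mismatches), without the first 15 and last 3 codons. Tool versions: not given in the sources used here. One table was used, which holds the log2 CPM that the authors averaged over all libraries in edgeR, for genes over 1 CPM in at least 3 samples, and a length. The deposited length was 60 bases under the coding length of an annotated transcript for 7093 of 7260 genes. It was therefore taken as the counted part, although the left-out codons make up 54 bases, not 60. The other 4 columns of the table hold the authors' comparison of the diets (fold changes and p-values, with log and adjusted forms) and were not used. The p-value column stops short of 1, so lines may be missing for other reasons than low abundance, and nothing was read from a missing line.

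CPM was taken as 2 to the power of log2 CPM and divided by kb of deposited length (Python 3.11.15, pandas 2.3.3), with functions tested on simulated data. Identity came from global alignment of coding sequences (Biopython 1.88). No test was run and no error or interval is given, since no value per library was used and depth is unknown. Coordinates and coding sequences came from the mm9 annotation (69 of 71 members matched), promoters from RefSeq. All subunits of entry machines and coats with a line were named, and of the partners the highest, the lowest and some others. The members and lists were chosen with earlier results of these data known. Alternatives changed the length, the filter on low values, the summary, the members or the motif.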

Additional observations from a re-analysis of the deposited data

How the results depend on the processing

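Of 107 recalculations of 41 results, 102 moved a value by no more than 1.5-fold, the limit used because no replicate spread is at hand. Some of these could not have moved. Kdelr2 and Kdelr1 have equal lengths, the Sec14-like group holds a single gene, and the filter removed no gene from several groups. Adding 60 bases to each length, chosen after seeing the data, moved none of 38 results past it. Taking 54 bases off moved the range within the translocon from 0.54 to 1.13 on the log2 scale, since Sec61g is short. That setting removes the left-out codons a second time if the deposited length is already the counted part, as was assumed. A filter that kept a log2 CPM of 3 or more lowered the gap between the members' and all genes' median log2 density from 2.34 to 1.57, the range within SRP and its receptor from 2.71 to 2.06 (Srp19 left out) and that within the p24 genes from 6.75 to 2.29 (Tmed8 left out). Asking for both pieces of the ER stress element anywhere in the window gave 15 members in place of 0, which is 25% of those with a window against 14.1% of genes of the table. Protein lengths were not used as an alternative because no protein table was at hand. No paired analysis was possible because the table holds no value per mouse and the diets share no mouse numbers. Depth per library is unknown, so how far counting error moves a ratio was not tested. Low genes such as Tmed8 rest on few footprints and also carry the small offset that edgeR adds to log2 CPM.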
